A study of Mus musculus with 4 samples.

Results

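The cytochrome P450 genes were followed through the liver cells of 4 single-cell libraries. Members were all genes of the deposited tables whose mouse symbol begins with Cyp, a number and a letter, which gave 100 of 31053 genes. Of these, 57 reached 20 UMIs (unique molecular identifiers, the counted RNA molecules) in at least 1 of 3 cell lineages, 43 did not, and 16 had no UMI in any barcode. Cyp51, a sterol demethylase, lies outside the rule because its symbol has no letter after the number, and Cyp4x1os inside it is an antisense transcript. The rule reads the symbols alone and uses no measured value.

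The libraries were made from dissociated mouse liver with 10x Genomics 5' gene expression chemistry, 1 library for each of 4 groups. The groups were tissue labelled eHCC with the genotype label KO, eHCC tissue labelled WT, premalignant liver labelled KO and premalignant liver labelled WT, where the sample titles tie both genotype labels to Mef2d. Strain, age, number of animals, the way the tissue came to its stage, the exons removed from Mef2d and the cell types that lost them do not appear in the labels. With 1 library per group there was no replicate and no test between groups, and animals, preparations and genotype cannot be told apart. Intervals are 95% intervals and cover counting error alone.

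Cytochromes P450 are haem enzymes that insert oxygen into small molecules with electrons passed on by the reductase Por or, in mitochondria, by ferredoxin. The CYP1, CYP2 and CYP3 families oxidise drugs, toxins and some steroids, CYP4 and Cyp2j enzymes act on fatty acids and eicosanoids, and single members carry steps of bile acid, retinoic acid, vitamin D and steroid hormone metabolism. In liver, hepatocytes around the central vein and around the portal tract express different members. Cyp2e1, Cyp1a2 and Cyp2c29 are textbook pericentral genes and Cyp2f2 a periportal one.

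Barcodes were sorted into lineages by summed marker genes, none of them a Cyp gene. The files held 56458438 to 118594527 UMIs in 9672 to 14167 barcodes per library. Hepatocyte-RNA barcodes numbered 16 in KO eHCC, 61 in WT eHCC, 857 in KO premalignant and 845 in WT premalignant tissue. Their median depth was 2327, 3322, 1223 and 1334 UMIs in that order of libraries. Mitochondrial RNA made up a median of 0.478% of their UMIs in KO and 0.668% in WT premalignant liver, and 293 of the 857 and 212 of the 845 lay within 1.5 times of the gate's cut, so they are named for the RNA they carry and not as hepatocytes. Endothelial barcodes numbered 64, 209, 3070 and 6006, and immune barcodes 7990, 9762, 4969 and 5923. From 27 to 46 barcode sequences were shared by each pair of libraries.

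Mef2d RNA was not lower in the libraries labelled KO in endothelial or immune barcodes of either stage. In premalignant liver it stood at 122.8 CPM (UMIs per 1000000 UMIs of the lineage) in KO and 78.3 CPM in WT immune barcodes, and at 88.6 and 72.8 CPM in KO and WT endothelial barcodes. Hepatocyte-RNA barcodes of premalignant liver had 17.5 CPM (45 UMIs) in the KO and 22.6 CPM (62 UMIs) in the WT library. Tags at the 5' end need not lie in the deleted part, so these levels do not check the genotype labels, and every direction between KO and WT given here is between libraries labelled so. The Y-linked gene Ddx3y was present in hepatocyte-RNA barcodes of all 4 libraries at 110 CPM (KO eHCC), 47.6 CPM (WT eHCC), 62.3 CPM (KO premalignant) and 51.4 CPM (WT premalignant), while Xist had at most 1 UMI there.

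Summed over all members, hepatocyte-RNA barcodes held 2288 CPM in KO eHCC, 5514 CPM in WT eHCC, 3544 CPM in KO premalignant and 3641 CPM in WT premalignant tissue. Endothelial barcodes held 269, 341, 1875 and 2206 CPM, and immune barcodes 120, 275, 198 and 220 CPM, in the same order. By these sums the family was most abundant in hepatocyte RNA in each library. The order of hepatocyte RNA and endothelium in premalignant liver depended on depth: with each barcode thinned to 500 UMIs, hepatocyte-RNA barcodes held 1487 CPM in KO and 1714 CPM in WT, and endothelial barcodes 1834 CPM in KO and 2332 CPM in WT. At least 20 UMIs were reached by 51 members in hepatocyte-RNA, 40 in endothelial and 44 in immune barcodes.

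**Figure D1:**
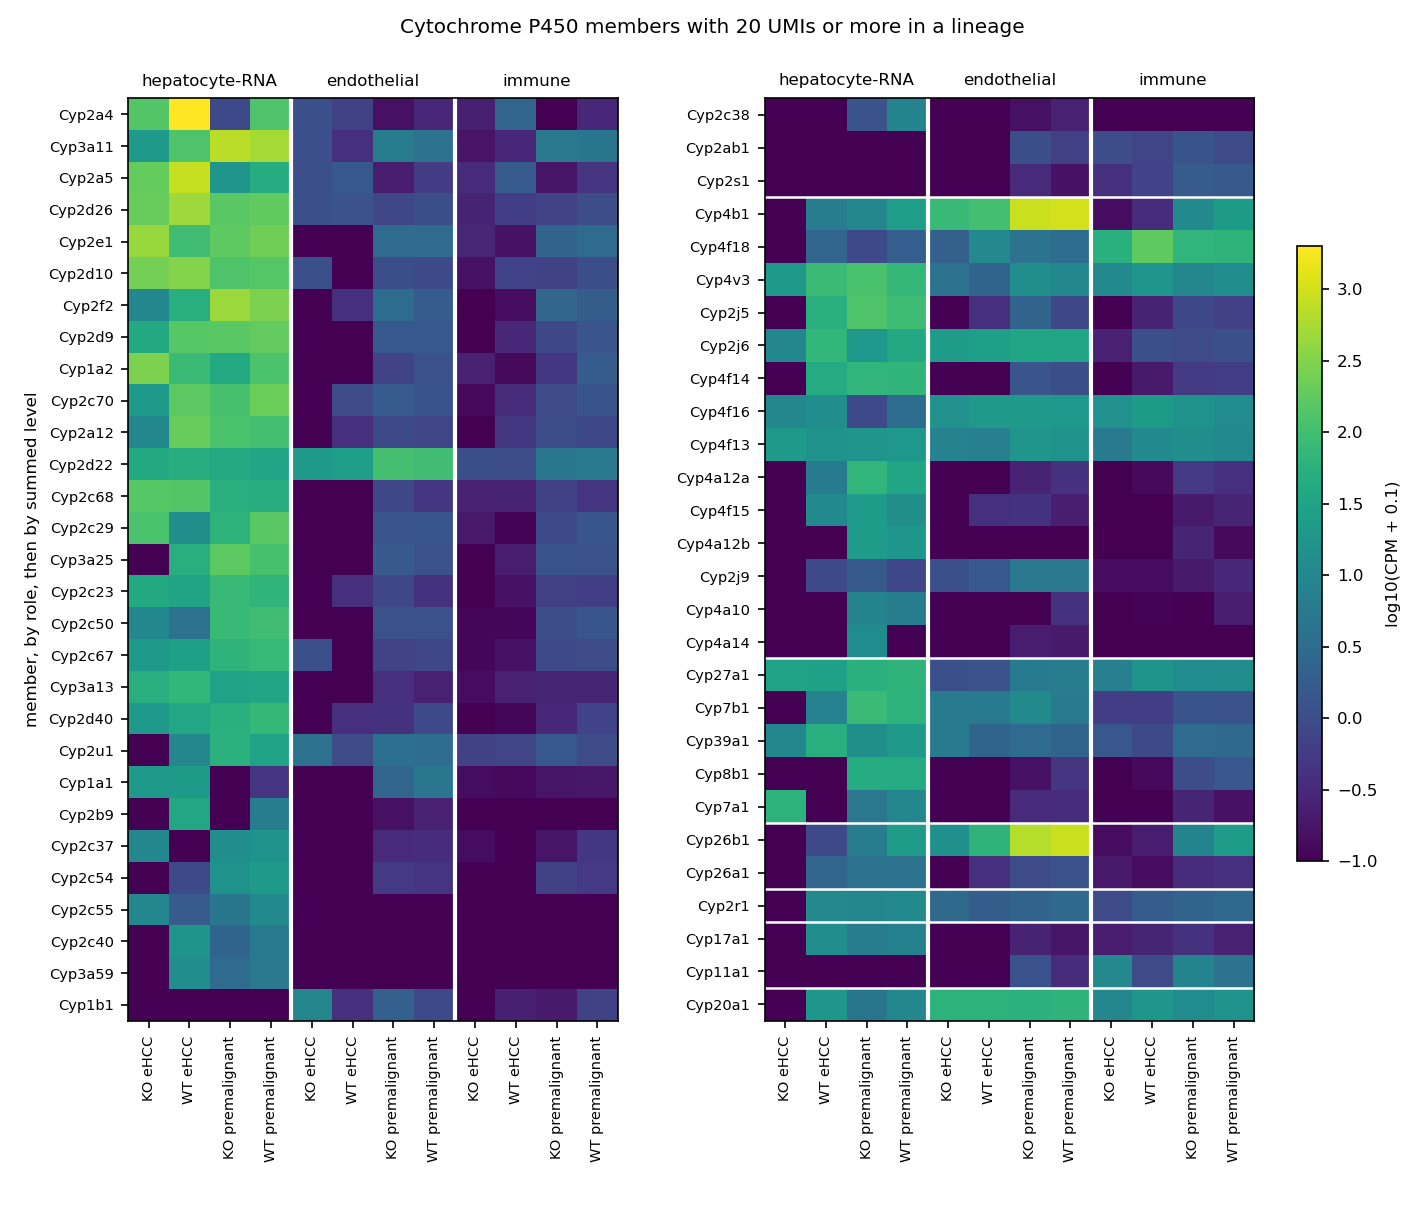
Levels of the 57 members with 20 UMIs or more in a lineage, 1 row per member grouped by role and 1 column per library in each of 3 lineages, coloured by log10(CPM + 0.1). Drug-metabolising members are brightest in the hepatocyte-RNA columns, while Cyp4b1 and Cyp26b1 are brightest in endothelial barcodes of premalignant liver and Cyp4f18 in immune barcodes.

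Promoter sequences are shown for 4 members on chromosome 7 on which the hepatocyte results turn: Cyp2a4, which had the widest gap between the premalignant libraries, Cyp2a5 of the same gene cluster, and the zonated pair Cyp2e1 and Cyp2f2. Each is the 250 bases before the RefSeq start in the GRCm38.p6 build, 5' to 3' on the gene's own strand, all 4 on the plus strand. The windows are chr7:26306942-26307191 for Cyp2a4, chr7:26835089-26835338 for Cyp2a5, chr7:140763569-140763818 for Cyp2e1 and chr7:27119705-27119954 for Cyp2f2. Capitals mark the letters of 3 searched motifs: GTTAAT, the core bound by HNF1, then TATAAA, and the box CCAAT read on either strand.
Cyp2a4: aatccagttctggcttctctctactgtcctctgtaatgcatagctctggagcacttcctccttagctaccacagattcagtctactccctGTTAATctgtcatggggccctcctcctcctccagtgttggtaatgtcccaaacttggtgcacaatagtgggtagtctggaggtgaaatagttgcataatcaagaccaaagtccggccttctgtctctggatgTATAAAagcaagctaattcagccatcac
Cyp2a5: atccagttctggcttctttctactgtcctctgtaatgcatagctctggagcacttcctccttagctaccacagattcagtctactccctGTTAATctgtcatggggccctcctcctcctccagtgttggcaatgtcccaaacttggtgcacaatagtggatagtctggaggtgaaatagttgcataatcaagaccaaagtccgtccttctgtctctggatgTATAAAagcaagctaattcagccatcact
Cyp2e1: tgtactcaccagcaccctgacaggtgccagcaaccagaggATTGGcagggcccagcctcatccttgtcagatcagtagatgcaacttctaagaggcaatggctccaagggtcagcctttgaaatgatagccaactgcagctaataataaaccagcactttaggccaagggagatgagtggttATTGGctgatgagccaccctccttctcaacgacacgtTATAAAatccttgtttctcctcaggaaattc
Cyp2f2: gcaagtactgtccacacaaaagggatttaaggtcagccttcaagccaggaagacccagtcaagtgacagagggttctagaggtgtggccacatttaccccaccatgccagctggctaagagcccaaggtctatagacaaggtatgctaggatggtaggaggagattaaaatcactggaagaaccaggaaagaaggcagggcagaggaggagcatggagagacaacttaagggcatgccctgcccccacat
When aligned, Cyp2a4 and Cyp2a5 were identical at 245 of 249 bases (98.4%) and carried the same GTTAAT and TATAAA letters. Cyp2e1 held TATAAA and 2 copies of CCAAT on the minus strand, and none of the 3 motifs was in the Cyp2f2 window. RefSeq windows were matched for 77 of the 100 members. Counting both strands, GTTAAT was in 11.7% of the members' windows and 6.43% of all 32851 windows, TATAAA in 36.4% and 12.4%, and CCAAT in 40.3% and 33.8%. The letters GCGTG, the core of the xenobiotic response element, were in 19.5% of members' windows, those of Cyp1a1 and Cyp1b1 among them, and in 28.2% of all windows. A match describes the letters and is not evidence of binding.

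The most abundant members of premalignant hepatocyte RNA were enzymes of drug metabolism. Cyp3a11, the main mouse CYP3A enzyme, had 710 CPM (678 to 744) in KO and 534 CPM (507 to 562) in WT premalignant liver. Cyp2f2, which oxidises naphthalene, had 454 CPM (429 to 481) in KO and 282 CPM (262 to 302) in WT. The intervals of both genes lay apart, with the KO library higher. Cyp2e1, the ethanol-inducible enzyme, had 174 CPM in KO and 237 CPM in WT. Cyp3a25 stood at 168 and 113 CPM, Cyp2d9 at 159 and 184 CPM, Cyp2d26 at 158 and 181 CPM, Cyp2d10 at 132 and 149 CPM, and Cyp2a12, a steroid hydroxylase, at 119 and 102 CPM, KO before WT. Reads of near-identical genes may have been split or lost among the Cyp2d, Cyp2a and Cyp2c members: 29.8% of the 91-base windows in the first 500 transcript bases of Cyp2d10 and 27.7% of those of Cyp2a12 occur in another gene, against none for Cyp3a11, Cyp2f2, Cyp2e1 and Cyp2a4. The share was 27.4% for Cyp2c50 and 16.1% for Cyp2c37.

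A member was counted as higher or lower where 2 libraries differed by at least 1.5-fold, the counting interval of the log2 ratio excluded 0 and the 2 libraries together had at least 20 UMIs. In premalignant hepatocyte-RNA barcodes 6 of 48 members were higher in KO than in WT, where 4.62% of all 9359 genes were, and 12 of 48 were lower, where 8.6% of all genes were. The members' median log2 ratio was -0.21, against -0.06 over all genes. By role, 2 of 27 drug-metabolising members were higher and 7 lower, 4 of 11 fatty acid members were higher and 2 lower, and 1 of 5 sterol and bile acid members was lower.

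Among the drug-metabolising members the widest gap was that of Cyp2a4, a steroid 15α-hydroxylase that in mouse liver is more abundant in females. It had 0.779 CPM (2 UMIs in 1 barcode) in KO and 132 CPM (362 UMIs in 34 barcodes) in WT premalignant liver, a log2 ratio of -7.40 (-10.45 to -5.54). Cyp2a5, the coumarin hydroxylase with the near-identical promoter, had 17.5 CPM in KO and 45.2 CPM in WT (log2 -1.37, -1.89 to -0.86). Cyp1a2, which oxidises caffeine and aromatic amines, had 42.5 CPM in KO and 120 CPM in WT (-1.50, -1.83 to -1.18). Cyp2c29 had 60.4 and 160 CPM (-1.41, -1.68 to -1.14) and Cyp2c70, which in mice makes muricholic acids, 113 and 220 CPM (-0.95, -1.16 to -0.75), KO before WT. The remaining lower members of this role were low: Cyp2c38 had 1.17 CPM (3 UMIs) in KO and 8.38 CPM (23 UMIs) in WT, and Cyp2c55 had 4.68 CPM in KO and 11.3 CPM in WT, where 24 of its 31 UMIs sat in 1 barcode. In the other direction stood Cyp2f2 (log2 0.69, 0.56 to 0.82) and Cyp2u1, which had 55.3 CPM in KO and 29.5 CPM in WT (0.91, 0.50 to 1.32). Some of these directions turned under other settings: by the mean of per-barcode CPM Cyp2f2 had -0.094 and Cyp2a5 0.67, in pericentral-scored barcodes (scored by zone genes described further on) Cyp2u1 had -1.38, in periportal-scored ones Cyp1a2 had 1.01 and Cyp2c29 0.54, and without its richest barcode in each library Cyp2c55 had 0.64. The ratios of Cyp3a11 (0.41, 0.31 to 0.51), Cyp2e1 (-0.45, -0.63 to -0.27) and Cyp3a25 (0.57, 0.36 to 0.79) excluded 0 but were under 1.5-fold. That of Cyp3a11 includes the KO barcode that held 509 of its 1823 UMIs.

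Of the fatty acid members, 8 of 11 had a positive ratio, and 4 were counted as higher in KO. Cyp4a12a, a male-predominant ω-hydroxylase that makes 20-HETE, had 69.0 CPM in KO and 33.5 CPM in WT (log2 1.04, 0.67 to 1.42), with 75.9% of its 5' windows shared with Cyp4a12b. Cyp4f15 had 24.2 CPM in KO and 13.1 CPM in WT (0.88, 0.27 to 1.52), and Cyp4v3, an ω-hydroxylase, 115 CPM in KO and 72.8 CPM in WT (0.65, 0.39 to 0.92). Cyp4a14, a PPARα target, had 12.5 CPM in KO, 30 of its 32 UMIs from 1 barcode, and no UMI in WT, which gives a log2 ratio of at least 3.51 against a floor of 3 UMIs. The directions of the other 3 were not stable. By the mean of per-barcode CPM Cyp4a12a had a log2 ratio of -0.17 and Cyp4v3 -0.31, at 10% mitochondrial UMIs at most Cyp4f15 had -0.48 and Cyp4v3 -0.34, under 10000 UMIs per barcode Cyp4f15 had -0.93 and Cyp4v3 -0.35, and in pericentral-scored barcodes Cyp4a12a had -1.37 and Cyp4v3 -0.87. Lower in KO were the epoxygenase Cyp2j6, with 19.9 CPM against 38.6 CPM in WT (-0.96, -1.47 to -0.46), and Cyp4b1, with 9.74 CPM against 24.4 CPM in WT (-1.32, -2.05 to -0.64). Cyp2j5 had 131 CPM in KO and 93.2 CPM in WT (0.49, 0.25 to 0.73), under the fold required.

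Of the sterol and bile acid enzymes, Cyp8b1 and Cyp27a1 were close between the libraries. Cyp8b1, the sterol 12α-hydroxylase, had 45.2 CPM in KO and 43.3 CPM in WT (log2 0.06, -0.32 to 0.44), and Cyp27a1, the mitochondrial sterol 27-hydroxylase, 54.5 CPM in KO and 61.5 CPM in WT (-0.17, -0.51 to 0.16). Cyp7b1, the oxysterol 7α-hydroxylase, had 86.5 CPM in KO and 60.1 CPM in WT (0.53, 0.23 to 0.82). Cyp7a1, the rate-limiting enzyme of bile acid synthesis, was rare, with 13 UMIs in KO and 27 UMIs in WT (-0.96, -2.04 to 0.05). Cyp39a1, a 24-hydroxycholesterol 7α-hydroxylase, was the member of this role counted as lower, with 13.6 CPM in KO and 21.5 CPM in WT (-0.66, -1.30 to -0.03), though without Tff3 or Afp barcodes it had 0.062. The vitamin D 25-hydroxylase Cyp2r1 (-0.22, -1.06 to 0.60) and the steroid enzyme Cyp17a1 (-0.30, -1.33 to 0.71) had intervals that included 0.

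A pair of members counted as lower in KO hepatocyte-RNA barcodes, Cyp26b1 and Cyp4b1, were most abundant in endothelial barcodes. Cyp26b1, which clears retinoic acid, had 6.62 CPM in KO and 23.7 CPM in WT (log2 -1.84, -2.70 to -1.05). Summed endothelial markers in the same barcodes stood at 384 CPM in KO and 717 CPM in WT. Per endothelial-marker UMI, Cyp26b1 in hepatocyte-RNA barcodes was 0.829 times (0.483 to 1.33) its level in endothelial barcodes in KO and 1.12 times (0.868 to 1.43) in WT, and Cyp4b1 0.907 times (0.587 to 1.34) in KO and 1.05 times (0.816 to 1.34) in WT. Cyp20a1, an orphan member, was lower as well, at 4.68 CPM in KO and 10.2 CPM in WT (-1.13, -2.24 to -0.10), and stood 6.97 times above the endothelial ratio in both libraries. Its sign turned to 0.36 by the mean of per-barcode CPM, 0.067 under 10000 UMIs and 0.076 without Tff3 or Afp barcodes, and that of Cyp26b1 to 0.13 in pericentral-scored barcodes.

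Other genes of P450 biology were read from lists, beside the 4.62% of all genes that were higher and the 8.6% that were lower in KO in the same barcodes. Electron donors and haem genes had 1 of 10 higher (Cyb5b) and 1 lower (Hmox1) in KO, and Por had 22.2 CPM in KO and 19.3 CPM in WT premalignant liver. Nuclear receptors and other regulators had 2 of 16 higher (Hnf4a and Onecut1) and none lower, with a median log2 ratio of 0.11, and phase II conjugating enzymes 4 of 14 higher (Ugt2b1, Gstp1, Nat8 and Mgst1) and none lower. Among pericentral genes outside the family 1 of 9 was higher (Aldh1a1) and 4 were lower, Glul, Gulo and Lect2 among them, and among periportal genes 3 of 11 were higher (Hal, Cps1 and Etnppl) and none lower. Of the aryl hydrocarbon receptor response genes 1 of 3 was lower (Nqo1) and none higher. Sterol synthesis genes were lower in 12 of 16, among them Hmgcs1 and Sqle, and higher in none, with a median of -0.70. Cyp51, which acts in that pathway, had 49.5 CPM in KO and 113 CPM in WT.

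**Figure D2:**
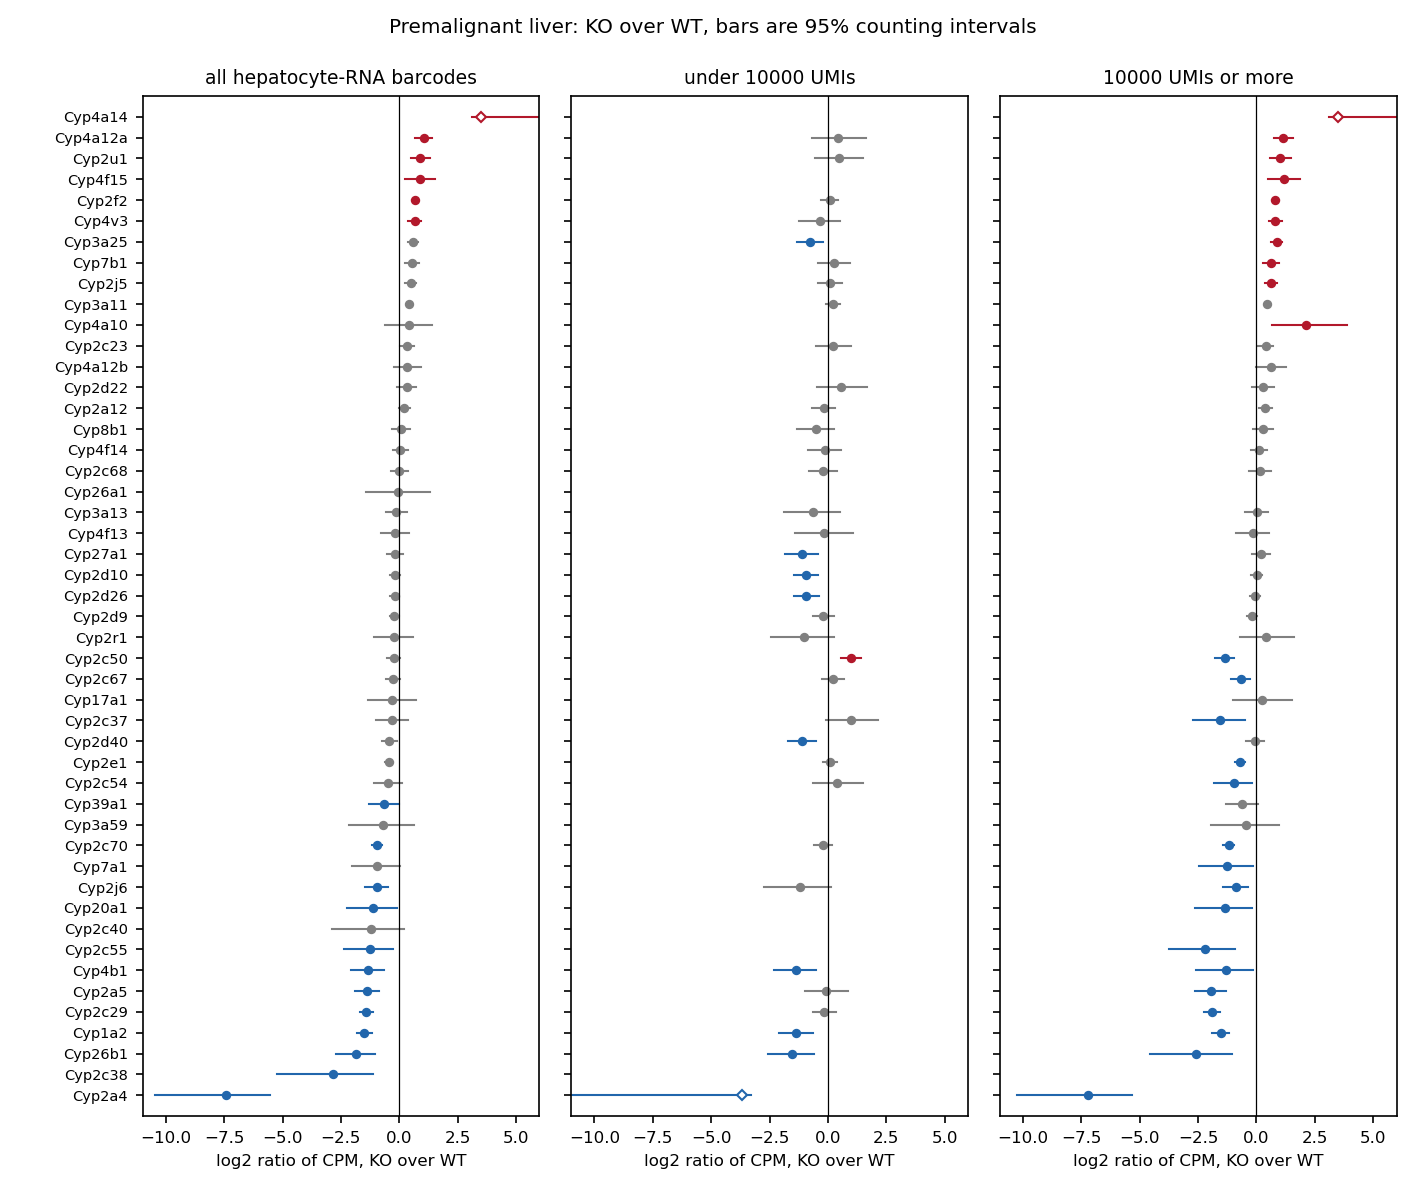
Log2 ratio of CPM, KO over WT premalignant liver, for the 48 members with 20 UMIs or more, over all hepatocyte-RNA barcodes and over those under and from 10000 UMIs; bars are 95% counting intervals, red and blue mark members counted as higher and lower, and open diamonds are bounds. Cyp2a4 lies far to the left in all 3 panels, while Cyp2f2, Cyp2a5 and Cyp2c29 lie near 0 in the panel under 10000 UMIs.

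These ratios rested on few deep barcodes. Barcodes of 10000 UMIs or more numbered 20 in KO and 47 in WT premalignant liver, with median depths of 65666 and 22845 UMIs, and held 46.4% and 47.5% of the hepatocyte-RNA UMIs. In them 10 of 45 members were higher in KO, where 4.17% of all genes were, and 16 were lower, where 16.3% were. Cyp2a4 had 1.68 CPM in KO and 247 CPM in WT, Cyp2a5 20.1 and 77.4 CPM, Cyp2c29 73.8 and 277 CPM, and Cyp2f2 874 and 499 CPM, KO before WT. In the 837 KO and 798 WT barcodes under 10000 UMIs, 1 of 35 members was higher in KO (Cyp2c50, 102 CPM against 51.4 CPM in WT), where 10.1% of all genes were, and 9 were lower, where 5.85% were. There Cyp2f2 had 90.2 CPM in KO and 85.4 CPM in WT, Cyp2a5 15.3 and 16.0 CPM, and Cyp2c29 48.7 and 54.1 CPM. Cyp1a2, at 17.5 CPM in KO and 44.4 CPM in WT, and Cyp2a4, at 0 UMIs in KO and 40 UMIs in WT, were lower in KO at both depths.

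Position in the lobule was read from 10 genes outside the family. Barcodes with more Glul, Oat, Slc1a2, Lgr5 and Axin2 RNA were scored pericentral (81 in KO and 83 in WT premalignant liver), and those with more Hal, Sds, Gls2, Sdsl and Etnppl RNA periportal (431 in KO and 433 in WT). Known zonation was recovered in both libraries. In KO, Cyp2e1 had 1454 CPM in pericentral-scored and 41.5 CPM in periportal-scored barcodes (log2 5.13, 4.77 to 5.50), and in WT 1103 and 11.7 CPM (6.55, 5.91 to 7.28). Cyp2f2 had no UMI in pericentral-scored barcodes and 578 CPM in periportal-scored ones in KO (log2 at most -5.21), and 4.07 and 430 CPM in WT (-6.72, -9.77 to -4.87). Cyp1a2 was 4.26 higher on the log2 scale in pericentral-scored barcodes in KO and 6.08 in WT, and Cyp2c29 4.74 in KO and 6.02 in WT. Cyp2a5 was at least 6.91 higher in KO and 5.63 higher in WT, and Cyp2c37 at least 6.24 and at least 5.49.

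The CYP2C members formed a gradient. Pericentral over periportal, Cyp2c50 had log2 ratios of 2.57 in KO and 4.74 in WT, Cyp2c54 2.44 and 4.05, Cyp2c67 1.64 and 2.67, and Cyp2c68 0.83 and 2.30. In each of these 4 the WT value was the larger, and the KO and WT intervals lay apart for Cyp2c50, at 2.03 to 3.09 in KO and 4.16 to 5.37 in WT. Of the 5' windows of Cyp2c50, 27.4% occur in another gene, Cyp2c37 sharing the most. Several members had no common side in the 2 libraries: Cyp3a11 had -0.21 (-0.47 to 0.04) in KO and 1.62 (1.45 to 1.78) in WT, Cyp2d10 -1.10 and 0.77, Cyp2c70 -0.87 and 1.53, and Cyp4a12a -1.71 and 1.11. On the periportal side in both stood Cyp4v3, at -2.19 in KO and -0.68 in WT, and Cyp2a12, at -2.78 and -0.62.

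Compared within a zone, the members split by zone. In pericentral-scored barcodes 13 of 35 members were lower in KO, where 9.97% of all genes were, and 1 was higher (Cyp4a14), where 12.4% were, with a members' median log2 ratio of -0.75 against 0.14 over all genes. Cyp2c70 had 67.7 CPM in KO and 470 CPM in WT there, Cyp3a11 709 and 1200 CPM, and Cyp1a2 339 and 594 CPM, while Cyp2e1 had 1454 CPM in KO and 1103 CPM in WT. Single deep barcodes weighed on pericentral RNA. Over all hepatocyte-RNA barcodes, 168 of the 446 Cyp2e1 UMIs in KO and 193 of the 651 in WT sat in 1 barcode. In periportal-scored barcodes 10 of 38 members were higher in KO, where 4.18% of all genes were, and 4 were lower, where 8.8% were, with a median of 0.39 against -0.10. Cyp3a11 had 820 CPM in KO and 392 CPM in WT there, Cyp2e1 41.5 and 11.7 CPM, Cyp1a2 17.7 and 8.81 CPM and Cyp4a12a 85.0 and 31.1 CPM. Thus Cyp3a11 and Cyp1a2 were lower in KO in the pericentral-scored and higher in KO in the periportal-scored barcodes. Over all hepatocyte-RNA barcodes, 1 KO barcode held 509 of the 1823 Cyp3a11 UMIs. Without the richest barcode of the gene in each library, the periportal-scored ratios of Cyp2e1 (0.32, -0.71 to 1.38; 61 of its 82 KO UMIs sat in 1 barcode) and Cyp1a2 (0.70, -0.43 to 1.91) had intervals that included 0. Whether the zones differ in these ratios was not tested.

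Cyp2a4 went with RNA of Tff3, a secreted trefoil peptide, and of Afp, a gene of fetal liver. Summed over hepatocyte-RNA barcodes, Tff3 had 27.3 CPM in KO and 377 CPM in WT premalignant liver, and Afp 2.73 CPM in KO and 89.2 CPM in WT. Barcodes with at least 3 UMIs of Tff3 and Afp numbered 3 in KO and 35 in WT. In those 35 Cyp2a4 had 432 CPM, Cyp2a5 139 CPM and Cyp1a2 281 CPM, and in the remaining WT barcodes 13.7, 8.12 and 56.8 CPM. With such barcodes left out of both libraries, 5 of 43 members were higher in KO, where 6.01% of all genes were, and 5 were lower, where 6.65% were. Cyp2a4 was lower in KO there too, with 2 UMIs against 27 UMIs in WT (log2 -4.09), 13 of the 27 in 1 barcode, and so were Cyp2c29 (-1.18), Cyp26b1 (-1.98) and Cyp4b1 (-1.45). Cyp2a5 turned round to 18.1 CPM in KO and 8.12 CPM in WT (1.15; 0.77, -0.23 to 1.84, without the richest barcode in each library), and Cyp1a2, at 43.8 CPM in KO and 56.8 CPM in WT, had an interval that included 0 (-0.38, -0.77 to 0.02).

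**Figure D3:**
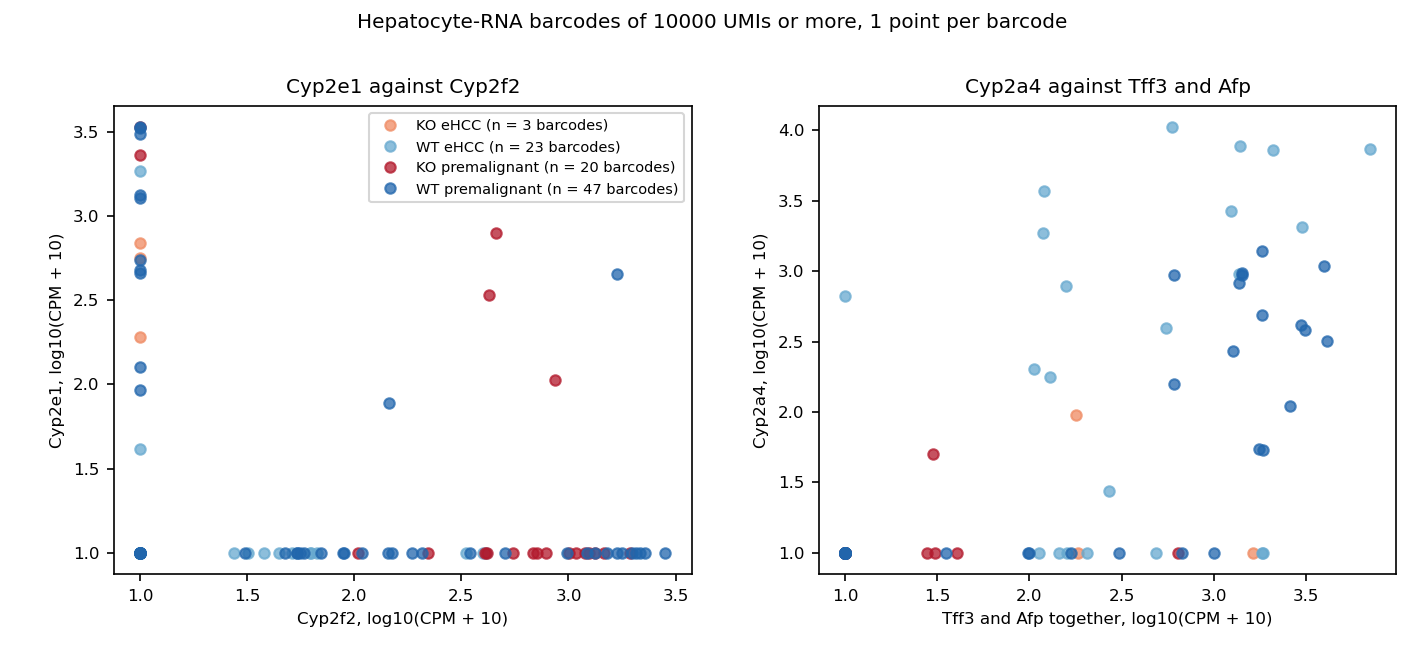
Hepatocyte-RNA barcodes of 10000 UMIs or more, 1 point per barcode (3 in KO eHCC, 23 in WT eHCC, 20 in KO premalignant and 47 in WT premalignant tissue), on log10(CPM + 10) axes: Cyp2e1 against Cyp2f2 on the left and Cyp2a4 against Tff3 and Afp together on the right. Most points with Cyp2e1 or Cyp2f2 lie on one of the axes, and the points highest in Cyp2a4 are of the WT eHCC library.

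Single deep barcodes showed the same division. At least 10 UMIs of Cyp2e1 were found in 1 KO eHCC, 1 WT eHCC, 3 KO premalignant and 6 WT premalignant barcodes, and at least 10 of Cyp2f2 in 0, 1, 14 and 12. Both together were found in 1 barcode, of the KO premalignant library, and neither in 2, 21, 4 and 29. These cuts are raw counts, and the median depths of the premalignant barcodes differed, at 65666 UMIs in KO and 22845 UMIs in WT, so the numbers with neither gene are not comparable between libraries. Cyp2a4 was detected in 1 of 3 KO eHCC, 15 of 23 WT eHCC, 1 of 20 KO premalignant and 15 of 47 WT premalignant barcodes. All but 1 of them, in WT eHCC, also had a Tff3 or Afp UMI, while 2, 7, 4 and 7 barcodes in that order had Tff3 or Afp without Cyp2a4. Over all these deep barcodes Tff3 was detected in 0 of 3, 16 of 23, 3 of 20 and 20 of 47. Afp was detected in 3 of 3, 15 of 23, 2 of 20 and 16 of 47. Most deep eHCC barcodes thus had Tff3 or Afp, and the overlap there does not set Cyp2a4 barcodes apart. The barcode richest in Cyp2a4 held 614 UMIs of it, 10583 CPM, in the WT eHCC library, against 66 UMIs at most in WT premalignant liver. Cyp2d26 had a UMI in 3 of 3, 20 of 23, 20 of 20 and 42 of 47 barcodes, with no such division.

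Between the stages, hepatocyte RNA was compared in the WT-labelled libraries, since KO eHCC had 16 such barcodes. The barcodes of the 2 WT libraries were unlike. Their median mitochondrial share was 7.27% in WT eHCC and 0.668% in WT premalignant tissue, and their median share of hepatocyte markers 12.7% and 6.19%. The part of these differences in the ratios was not tested. Of 48 members, 14 were higher in WT eHCC than in WT premalignant tissue, where 22% of all genes were, and 23 were lower, where 20.3% were. The CYP2A pair were the most abundant of the higher members: Cyp2a4 had 2007 CPM (2528 UMIs in 40 of 61 barcodes) in WT eHCC and 132 CPM in WT premalignant tissue (log2 3.93, 3.77 to 4.09), and Cyp2a5 846 CPM and 45.2 CPM (4.23, 3.96 to 4.51). Cyp1a1, induced through the aryl hydrocarbon receptor, had 22.2 CPM (28 UMIs in 3 barcodes) in WT eHCC and 1 UMI in WT premalignant tissue, with 24 of the 28 UMIs in 1 barcode. Cyp2b9 had 37.3 and 6.56 CPM (2.51), Cyp2c68 143 and 48.4 CPM (1.56), Cyp2d26 468 and 181 CPM (1.37), Cyp39a1 52.4 and 21.5 CPM (1.29) and Cyp2d10 313 and 149 CPM (1.07), eHCC before premalignant.

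Of the 5 sterol and bile acid members 4 were lower in WT eHCC and 1 was higher (Cyp39a1), and of the 29 drug-metabolising members 14 were lower and 11 higher. Cyp8b1 had no UMI in WT eHCC and 43.3 CPM in WT premalignant tissue (log2 at most -4.19), Cyp7b1 7.94 and 60.1 CPM (-2.92), Cyp27a1 29.4 and 61.5 CPM (-1.07), and Cyp7a1 no UMI against 27 UMIs (at most -2.05). Cyp2c50 had 3.97 CPM in WT eHCC and 95.1 CPM in WT premalignant tissue (-4.58), Cyp2c29 13.5 and 160 CPM (-3.57), Cyp4a12a 5.56 and 33.5 CPM (-2.59), Cyp2f2 50.8 and 282 CPM (-2.47), Cyp3a11 129 and 534 CPM (-2.05) and Cyp2e1 94.5 and 237 CPM (-1.33). Of the 119 Cyp2e1 UMIs of WT eHCC, 117 came from 1 barcode, and without the richest barcode in each library the Cyp2e1 ratio was -6.67. The eHCC library held 93.3% of its hepatocyte UMIs in barcodes of 10000 UMIs or more, the premalignant one 47.5%. Compared among such deep barcodes, 7 of 47 members were higher in WT eHCC, where 16% of all genes were, and 27 lower, where 11.7% were. Cyp2a4 (3.02, 2.85 to 3.19), Cyp2a5 (3.43, 3.14 to 3.74), Cyp2c68 (1.29) and Cyp2d26 (0.62) were among the 7, and Cyp2f2 (-3.44), Cyp3a11 (-2.86) and Cyp1a2 (-1.19) among the 27. Of the 105 Cyp1a2 UMIs in the deep WT eHCC barcodes, 86 sat in 1 barcode.

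In the 16 KO eHCC barcodes, 228 member UMIs were found. Cyp2e1 had 432 CPM (312 to 581; 43 UMIs in 8 barcodes) and Cyp1a2 281 CPM (187 to 406), beside 3663 CPM of the pericentral gene Glul and no Hal UMI. In WT eHCC Cyp2e1 had 94.5 CPM and Cyp1a2 84.2 CPM, beside 27.0 CPM of Glul and 81.8 CPM of Hal. These values rested on few barcodes. In WT eHCC 1 barcode held 117 of the 119 Cyp2e1 UMIs and 86 of the 106 Cyp1a2 UMIs. In KO eHCC 3 barcodes held 63.1% of the hepatocyte-RNA UMIs, and 1 of them held 167 Glul UMIs. Cyp2a4 had 141 CPM (76.8 to 236; 14 UMIs in 5 barcodes) in KO eHCC, under the 2007 CPM of WT eHCC, and Cyp2a5 191 CPM (115 to 298), under 846 CPM. Cyp3a11 and Cyp2f2 had 2 UMIs and 1 UMI in KO eHCC. None of these 16 barcodes was scored periportal and none of the 61 of WT eHCC pericentral.

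Endothelial barcodes carried a P450 set of their own, led by Cyp4b1 and Cyp26b1. In premalignant liver Cyp4b1, a fatty acid and xenobiotic oxygenase, had 890 CPM in KO and 997 CPM in WT, with a UMI in 86.1% of KO and 92.7% of WT barcodes. Cyp26b1 had 662 CPM in KO and 906 CPM in WT, in 61.9% and 81.5% of barcodes. In immune barcodes the shares were 5.84% in KO and 11.2% in WT for Cyp4b1 and 4.55% and 10.4% for Cyp26b1. Median depths of the endothelial barcodes were 5233 UMIs in KO and 6872 UMIs in WT, and those of the immune barcodes 4409 and 4022 UMIs.

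RNA set free from broken cells can be captured with other cells in droplet data. Members were therefore set against the hepatocyte-marker UMIs of the same barcodes, and how much of any member's level came from such RNA was not tested: 21 of 40 members had at least 3 times the ratio of hepatocyte-RNA barcodes in at least 1 library with a lower bound above 1. The other 19 had ratios of 0.556 to 2.57 times the hepatocyte value with a median of 1.12, over the 38 values of the premalignant libraries. Cyp3a11, the most abundant of them, stood at 1.10 times (0.905 to 1.33) in KO and 1.06 times (0.911 to 1.24) in WT premalignant liver, and Cyp2f2 at 0.846 and 0.821 times. For Cyp3a11 both intervals included 1, the ratio of hepatocyte-RNA barcodes. Cyp2e1 had 3.05 CPM in KO and 3.06 CPM in WT endothelial barcodes, Cyp2d9 1.44 and 1.42 CPM and Cyp2c70 1.61 and 1.24 CPM. Cyp4b1 stood at 11106 and Cyp26b1 at 12144 times the hepatocyte value in KO, and at 5715 and 5350 times in WT. With Alb RNA alone in place of the hepatocyte markers 22 of 40 members were above the ratio, with Cyp4f14 added.

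The remaining endothelial members above the hepatocyte ratio were of several roles and at lower levels. The values follow for KO eHCC, WT eHCC, KO premalignant and WT premalignant barcodes in turn. Cyp2d22 had 21.1, 26.1, 108 and 96.0 CPM, Cyp20a1 59.4, 60.9, 55.6 and 62.9 CPM, and Cyp2j6 24.2, 26.4, 33.7 and 35.2 CPM. Cyp4f16 had 15.1, 21.2, 20.9 and 19.9 CPM, Cyp4f13 8.06, 7.25, 17.4 and 15.5 CPM, and Cyp4v3 4.03, 2.32, 13.1 and 10.1 CPM. Cyp20a1 and Cyp4f16 were thus within a narrow range over the 4 libraries, while Cyp2d22, Cyp4f13 and Cyp4v3 were lower in both eHCC libraries. Cyp7b1 had 6.04, 5.51, 10.7 and 6.05 CPM, Cyp27a1 1.01, 1.16, 5.49 and 6.36 CPM, and Cyp2j9, an epoxygenase, 1.01, 1.45, 5.11 and 5.19 CPM. Cyp1a1 had no UMI in either eHCC library and 2.44 and 4.71 CPM in KO and WT premalignant liver, in 0.521% and 1.15% of barcodes. Cyp2u1, Cyp2r1, Cyp39a1, Cyp26a1, Cyp2ab1, Cyp11a1 and Cyp2c54 stayed at 6.04 CPM or under in every library.

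**Figure D4:**
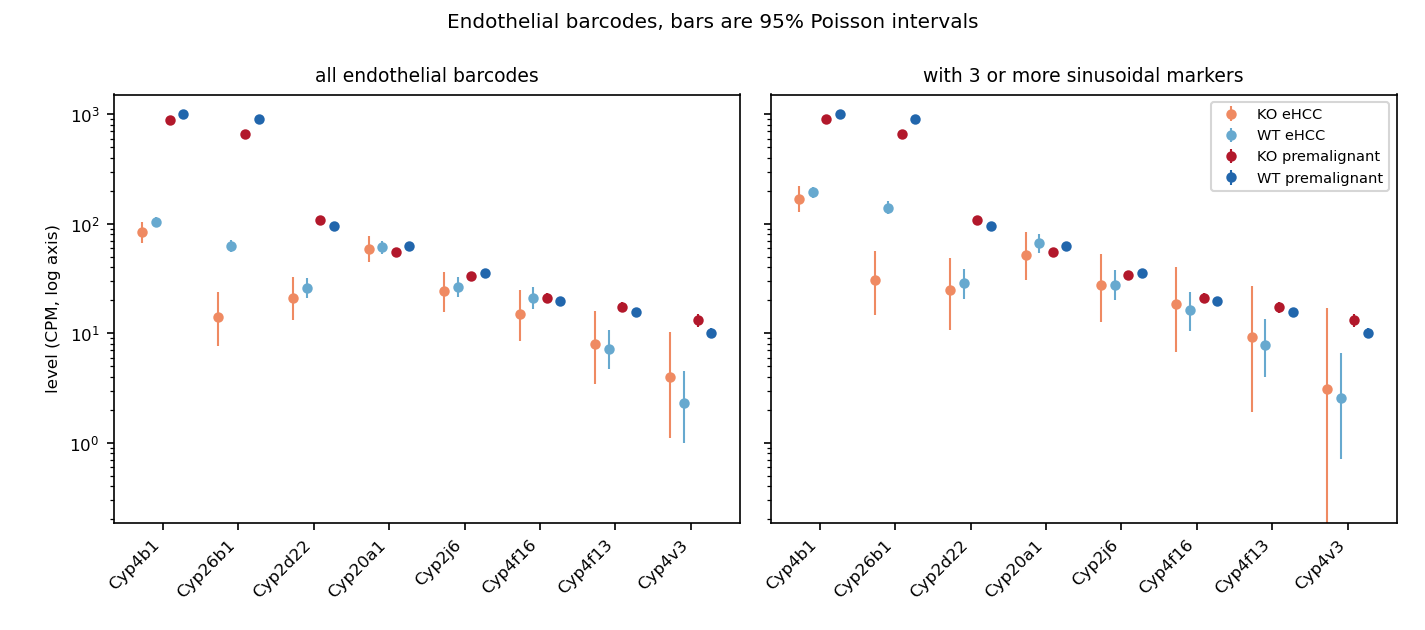
CPM of 8 members on a log axis in the 4 libraries, over all endothelial barcodes and over those with 3 or more of 7 sinusoidal markers; bars are 95% Poisson intervals and points without a UMI are left out. Cyp4b1 and Cyp26b1 lie lower in both eHCC libraries than in both premalignant libraries in each panel, and Cyp20a1 lies level.

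Between the genotype labels in premalignant endothelium, 7 of 40 members were higher in KO, where 6.5% of all genes were, and 3 were lower, where 2.63% were. Among the 21 members above the hepatocyte ratio, 3 were higher and 1 lower. Cyp7b1 had a log2 ratio of 0.82 (0.55 to 1.09), Cyp1b1, an aryl hydrocarbon receptor target, 1.33 (0.63 to 2.03; 1.998 CPM in KO and 0.796 CPM in WT) and Cyp11a1, which cleaves the cholesterol side chain, 2.14, on 20 UMIs in KO and 12 UMIs in WT. The Cyp11a1 call turned to -1.91 with the gate halved and was lost without the richest barcode in each library, with 12 UMIs in the KO one and 7 UMIs in the WT one. Cyp1a1 was lower (-0.95, -1.45 to -0.48). The dominant members were under the fold required: Cyp26b1 had -0.45 (-0.48 to -0.42) and Cyp4b1 -0.16 (-0.19 to -0.14). The other 4 higher members, Cyp2j5, Cyp2c23, Cyp2f2 and Cyp3a11, were not above the hepatocyte ratio, and hepatocyte markers made up 773 CPM in KO and 796 CPM in WT endothelial barcodes.

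Within the endothelium Cyp26b1 and Cyp4b1 ran in opposite directions along the lobule. Barcodes scored by endothelial zone markers had 749 CPM of Cyp26b1 in pericentral-scored and 519 CPM in periportal-scored barcodes in KO (log2 0.53, 0.47 to 0.60), and 1189 and 715 CPM in WT (0.73, 0.70 to 0.77). Cyp4b1 had 747 CPM in pericentral-scored and 1018 CPM in periportal-scored barcodes in KO (-0.45, -0.50 to -0.39), and 828 and 1056 CPM in WT (-0.35, -0.38 to -0.32). Pericentral as well were Cyp7b1, at 16.3 and 4.05 CPM in KO (2.01, 1.35 to 2.72) and 13.1 and 2.53 CPM in WT (2.37, 1.93 to 2.84), and Cyp1b1, with 35 UMIs against 1 UMI in KO and 38 UMIs against none in WT. Cyp20a1 and Cyp2d22 differed by at most 0.16 on this log2 scale in either library.

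Between the stages the endothelial pair was far lower in eHCC. In KO, Cyp26b1 had 14.1 CPM at eHCC and 662 CPM in premalignant tissue (log2 -5.55, -6.42 to -4.81), and Cyp4b1 83.6 and 890 CPM (-3.41, -3.74 to -3.10). In WT, Cyp26b1 had 62.9 CPM at eHCC and 906 CPM in premalignant tissue (-3.85), and Cyp4b1 103 and 997 CPM (-3.28). Of the 217 Cyp26b1 UMIs of WT eHCC, 92 sat in 1 barcode, and without it the WT ratio was -4.62. In KO 6 of 27 members were lower at eHCC, where 24.1% of all genes were, and 1 was higher (Cyp1b1, 9.06 CPM and 1.998 CPM; its interval included 0 without the richest barcode in each library, at 1.68, -0.05 to 3.06), where 12.2% were. In WT 12 of 36 were lower, where 19.3% of all genes were, and 1 was higher (Cyp4f18, 10.4 CPM and 3.18 CPM), where 13.5% were.

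Sinusoidal markers moved with these values. Barcodes with at least 3 of 7 sinusoidal markers were 19 of 64 in KO eHCC, 94 of 209 in WT eHCC, 2996 of 3070 in KO premalignant and 5958 of 6006 in WT premalignant tissue, and summed endothelial markers stood at 9392, 10843, 31805 and 30854 CPM. Among barcodes with 3 or more sinusoidal markers, Cyp26b1 had 30.8 CPM in KO eHCC and 666 CPM in KO premalignant tissue (log2 -4.44), and 140 CPM in WT eHCC and 907 CPM in WT premalignant tissue (-2.70, or -3.45 without the richest WT eHCC barcode). Cyp4b1 had 169 and 896 CPM (-2.41) in KO and 194 and 999 CPM (-2.37) in WT. Restricted so, 3 of 27 members were lower at eHCC in KO, where 13.5% of all genes were, and 2 higher, where 9.59% were. In WT 9 of 36 were lower, where 13.2% of all genes were, and 1 higher, where 10.1% were. The share of sinusoidal barcodes thus moved with the fall of the pair, and both genes were lower within that share as well.

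At eHCC the genotype labels differed in 2 of 9 endothelial members, both lower in KO, where 9.32% of all genes were lower and 6.82% higher. Cyp26b1 had 14.1 CPM in KO and 62.9 CPM in WT (log2 -2.16, -3.05 to -1.38), and Cyp4f18 2.01 CPM (2 UMIs) and 10.4 CPM (-2.37). Without the WT barcode that held 92 of its 217 UMIs, Cyp26b1 had -1.38 (-2.30 to -0.58), and without the WT barcode that held 10 of its 36 UMIs, Cyp4f18 had -1.92 (-5.04 to 0.08). Within barcodes with 3 or more sinusoidal markers Cyp26b1 had a ratio of -2.19 (-1.43, -2.53 to -0.50, without that WT barcode) and was the 1 of 6 members counted as lower, where 7.12% of all genes were, while none was higher, where 6.71% were.

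Immune barcodes held yet another set, led by Cyp4f18, which in mouse neutrophils breaks down leukotriene B4. It had 53.1 CPM in KO eHCC, 173 CPM in WT eHCC, 67.5 CPM in KO premalignant and 62.2 CPM in WT premalignant tissue. Its level in hepatocyte-RNA barcodes was at most 5 UMIs in any library. Leaving out Cyp4b1 and Cyp26b1, the other leading members lay between 6.17 and 22.1 CPM in every library: Cyp4f16 had 14.9, 22.1, 15.2 and 11.9 CPM, Cyp20a1 9.63, 17.8, 11.6 and 15.3 CPM, Cyp4v3 10.8, 17.8, 9.82 and 12.5 CPM, Cyp27a1 7.32, 16.6, 11.8 and 12.7 CPM and Cyp4f13 6.17, 11.1, 13.3 and 11.3 CPM, in the same library order. WT eHCC was the highest library for the first 4 of these 5. Of 44 members, 22 stood at least 3 times above the hepatocyte ratio, and the rest at 0.144 to 2.01 times it with a median of 0.79, over 43 values of the premalignant libraries. The line depended on the base. With Alb RNA alone in place of the hepatocyte markers 28 of 44 were above it, with Cyp3a11, Cyp2e1, Cyp1a2, Cyp2c29, Cyp2c50 and Cyp2a5 added. Among the 22 were Cyp26b1 and Cyp4b1, the leading endothelial members. In WT premalignant immune barcodes they had 743 and 732 UMIs, against 502 UMIs of Cyp20a1. They are set against endothelial markers further on. Cyp2r1, Cyp39a1, Cyp2ab1, Cyp2s1, Cyp2u1, Cyp2j6, Cyp7b1 and Cyp8b1 were among the 22 but stayed at 3.14 CPM or under in each library, and Cyp2d22 at 5.29 CPM or under. Of the rest the most abundant were hepatocyte genes: Cyp3a11 had 4.95 CPM in KO and 4.68 CPM in WT premalignant immune barcodes, Cyp2e1 2.27 and 3.13 CPM, and Cyp2f2 2.49 and 1.76 CPM.

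Cyp4f18 was carried by several classes of immune cells, named -like from at least 3 markers of each. In mast and basophil-like barcodes it had 394, 605, 937 and 1033 CPM, in neutrophil-like barcodes 192, 508, 443 and 443 CPM, in monocyte and macrophage-like barcodes 194, 248, 184 and 154 CPM, and in B-like barcodes 85.9, 112, 136 and 118 CPM, for KO eHCC, WT eHCC, KO premalignant and WT premalignant tissue. T-like barcodes had 6.92, 18.3, 6.26 and 3.46 CPM. In premalignant liver neutrophil-like barcodes had nearly the same level under both labels (log2 0.00, -0.48 to 0.48, on 76 UMIs in KO and 75 UMIs in WT). At eHCC Cyp4f18 was lower in KO neutrophil-like barcodes (-1.41, -1.66 to -1.16), 1 of 2 members lower there of 5 compared, where 22.8% of all genes were lower and 8.65% higher. It was lower as well in mast and basophil-like barcodes (-0.62, -1.07 to -0.14), where 8.21% of all genes were lower and 6.48% higher. In monocyte and macrophage-like barcodes it differed by -0.36 (-0.42 to -0.30), under the fold required.

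Cyp11a1 belonged to the mast and basophil-like class, where it had 845 CPM in KO eHCC, 1131 CPM in WT eHCC, 1077 CPM in KO premalignant and 1399 CPM in WT premalignant tissue. That class had 185, 13, 45 and 21 barcodes. Cyp11a1 was detected in 120, 13, 44 and 21 of them, and Cyp4f18 in 65, 11, 41 and 20, so detection was less complete in KO eHCC. The class pools mast and basophil-like cells, and the part of their mix in the class values was not tested. Over all immune barcodes Cyp11a1 stood at 10.5, 0.864, 8.59 and 4.32 CPM, and its KO over WT log2 ratio was 3.61 (3.30 to 3.93) at eHCC and 0.99 (0.69 to 1.30) in premalignant tissue. Within the class it was -0.42 (-0.75 to -0.08) at eHCC and -0.38 (-0.70 to -0.05) in premalignant tissue. Within the class the sign was thus opposite to that over the whole lineage; the part of the number of such barcodes in the whole-lineage ratios was not tested.

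**Figure D5:**
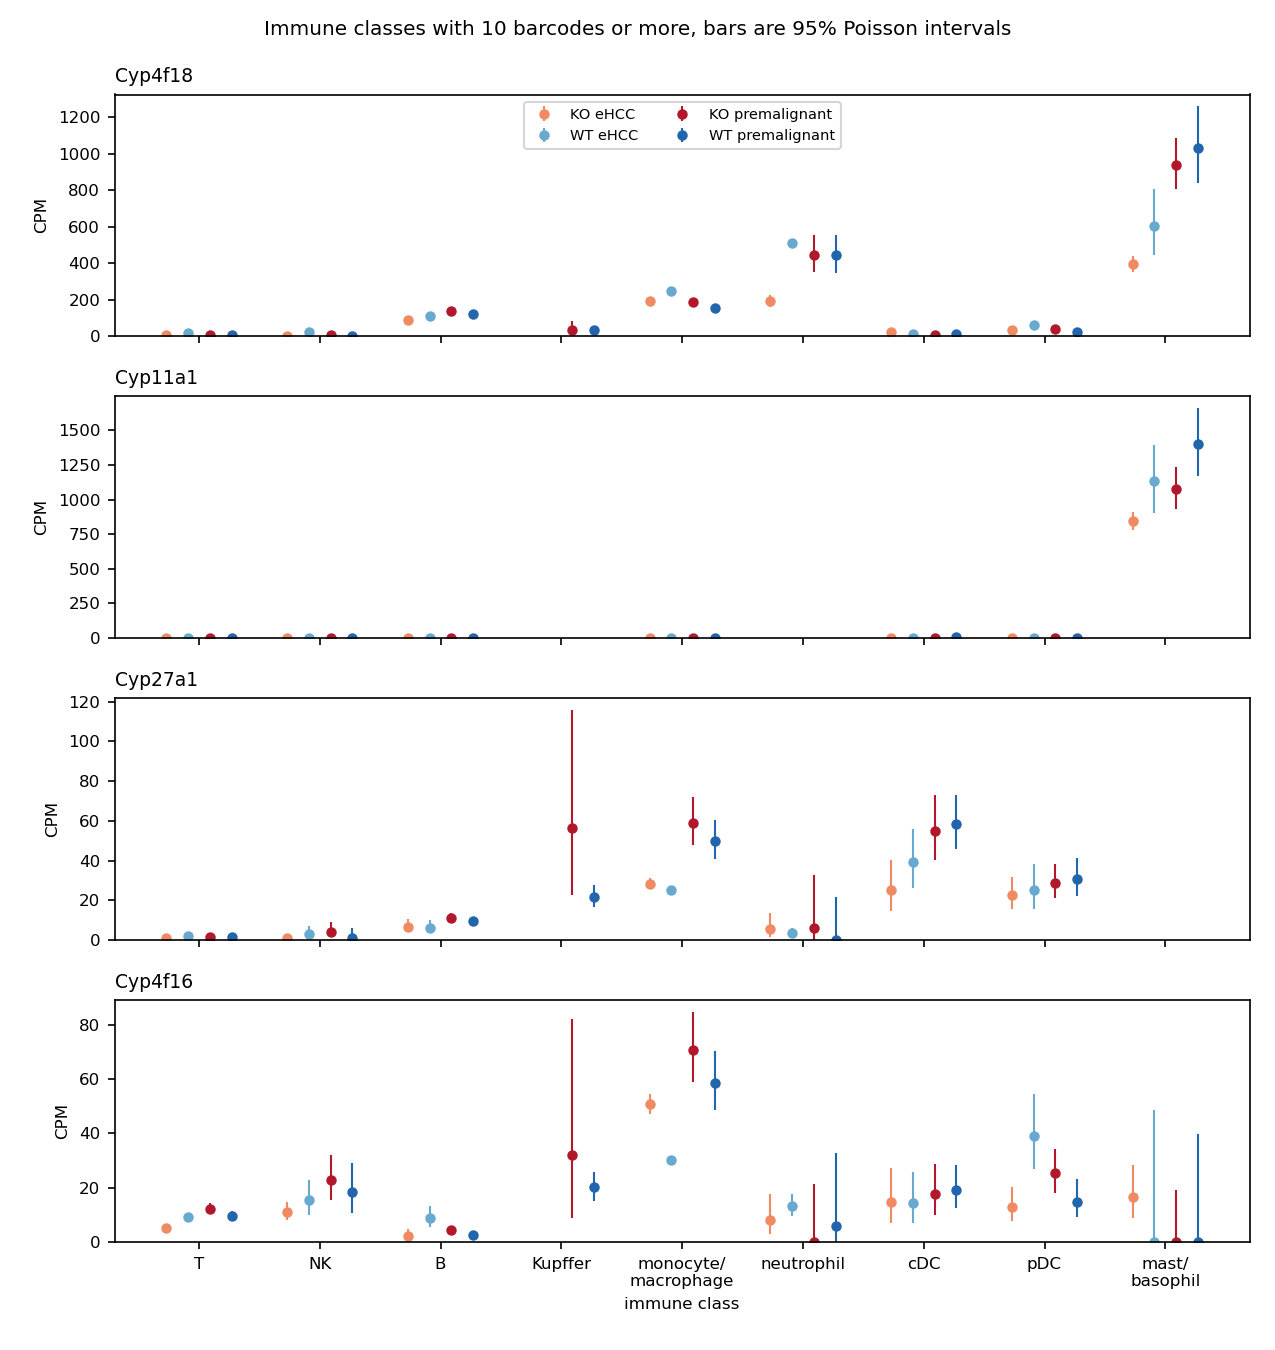
CPM of Cyp4f18, Cyp11a1, Cyp27a1 and Cyp4f16 in 9 immune classes with 10 barcodes or more, 1 point per library with 95% Poisson intervals; points are left out where a library had under 10 barcodes of the class or the gene had too few UMIs over the 4 libraries. Cyp11a1 stands well above 0 in mast and basophil-like barcodes, and Cyp4f18 is spread over granulocytes, monocytes and macrophages and B-like barcodes.

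Cyp27a1 and Cyp4f16 were unevenly spread over the immune classes. Cyp27a1 had 25.2, 39.2, 54.8 and 58.4 CPM in conventional dendritic-like barcodes and 28.3, 25.4, 59.0 and 49.9 CPM in monocyte and macrophage-like barcodes of KO eHCC, WT eHCC, KO premalignant and WT premalignant tissue, and at most 5.83 CPM in neutrophil-like barcodes of any library. It was lower at eHCC in the monocyte and macrophage-like class of both labels, by a log2 ratio of -1.06 (-1.38 to -0.73) in KO and -0.97 (-1.26 to -0.67) in WT. In that class 4 of 10 members were lower at eHCC in KO, where 19.4% of all genes were, and none higher, where 7.8% were. In WT 6 of 21 were lower, where 17.7% were, and 2 higher, where 6.74% were. Cyp4f16 had 50.7, 30.1, 70.8 and 58.7 CPM in that class, with KO over WT ratios of 0.75 (0.63 to 0.87) at eHCC and 0.27 (-0.11 to 0.65) in premalignant tissue. In NK-like barcodes Cyp4f16 had 10.9, 15.5, 22.7 and 18.2 CPM, close to the 14.8, 14.4, 17.5 and 19.2 CPM of conventional dendritic-like ones, and in neutrophil-like barcodes it had at most 13.1 CPM. Cyp2ab1, an orphan CYP2 member, was lower at eHCC in both, at 4.36 and 1.10 CPM in KO and WT eHCC and 15.9 and 9.29 CPM in KO and WT premalignant tissue. Cyp39a1 was also higher in KO within the class at eHCC (2.22, 1.70 to 2.75). Between the labels at eHCC 4 of 19 members were higher in KO in this class, where 12.3% of all genes were, and 5 lower, where 17.5% were. Kupffer-like barcodes were too few to compare outside WT premalignant liver, where 294 of them had 36.0 CPM of Cyp4v3, 32.2 CPM of Cyp4f18 and 21.4 CPM of Cyp27a1. Cyp8b1, low over the lineage, had 24.6 CPM in conventional dendritic-like barcodes of WT premalignant liver. These were 32 of its 45 immune UMIs there, in 19 of 77 barcodes. In that class it had 8.16 CPM (7 UMIs) in KO premalignant liver, 3 UMIs in WT eHCC and 0 in KO eHCC.

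Compared over the whole immune lineage, premalignant liver had 1 of 39 members higher in KO (Cyp11a1), where 10.4% of all genes were, and 5 lower, where 7.74% were. Of the 5, Cyp26b1 (-1.40, -1.62 to -1.19) and Cyp4b1 (-1.02, -1.22 to -0.83) are the endothelial pair, and summed endothelial markers in immune barcodes were 454 CPM in KO and 766 CPM in WT. Per endothelial-marker UMI Cyp26b1 was 0.907 times (0.794 to 1.03) its endothelial value in KO and 1.00 times (0.933 to 1.08) in WT, and Cyp4b1 0.862 times (0.767 to 0.966) in KO and 0.899 times (0.835 to 0.967) in WT. At eHCC 3 of 27 members were higher in KO, where 15.7% of all genes were, and 17 lower, where 23% were. Cyp4f18 had -1.71 (-1.76 to -1.66) and Cyp27a1 -1.18 (-1.32 to -1.04). The mix of classes differed: monocyte and macrophage-like barcodes numbered 1087 in KO and 3912 in WT eHCC, neutrophil-like 78 and 676, and T-like 5307 and 4217. Its part in these ratios was not tested beyond the class values above.

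The CYP2A pair of hepatocyte RNA was also found in immune barcodes. Cyp2a4 had 0.135 CPM in KO eHCC and 2.43 CPM in WT eHCC immune barcodes (log2 -4.17, -5.24 to -3.27), and Cyp2a5 0.243 and 1.65 CPM (-2.76, -3.55 to -2.06). Per hepatocyte-marker UMI, Cyp2a4 in WT eHCC immune barcodes was 0.717 times (0.629 to 0.814) and Cyp2a5 1.15 times (0.979 to 1.35) the hepatocyte value, and hepatocyte markers stood at 33.7 CPM in KO and 241 CPM in WT eHCC immune barcodes. Cyp2d26 differed from the pair: it was higher in WT eHCC than in WT premalignant hepatocyte RNA but lower in immune barcodes, at 0.533 CPM in WT eHCC and 0.942 CPM in WT premalignant tissue (-0.82, -1.47 to -0.14). Between the stages none of 34 members was higher at eHCC in KO, where 9.46% of all genes were, and 27 were lower, where 37.9% were. In WT 4 of 41 were higher, namely Cyp2a4, Cyp2a5, Cyp4f18 (1.48, 1.41 to 1.54) and Cyp4f16 (0.89), where 11.7% of all genes were, and 26 were lower, where 28.3% were.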

How the data were processed

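Raw UMI counts per gene and barcode were used as deposited, in filtered matrices that Cell Ranger 3.0.1 wrote per the file headers. Per the submitters' processing notes, bcl2fastq 2.20.0 and Cell Ranger were run and the builds GRCh38 and mm10 are listed; no source used here names the annotation. Barcodes under 500 UMIs or 300 genes, or above 25% mitochondrial UMIs, were dropped. A lineage was given by the share of UMIs in its markers: 3% for hepatocyte RNA, 0.5% for endothelial and 0.2% for immune barcodes. Barcodes past the cut of 2 lineages (52 to 790 per library) were left out, and no doublet caller was run. UMIs were summed per library and lineage and given as CPM with exact Poisson intervals. Ratios carry exact conditional binomial intervals, shares Clopper-Pearson ones, and a count of 0 was set to a floor of 3 UMIs. With 1 library per group no test was made. The ratio rule was tried on simulated Poisson counts, the model its intervals assume. That trial does not cover UMIs clumped in single barcodes.

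Members with at least 20 UMIs were eligible for naming: in hepatocyte RNA the 10 most abundant and the 5 highest and 5 lowest ratios, elsewhere those above the hepatocyte ratio (up to 20) and the 5 most abundant of the rest. Pathway genes came from lists of electron donors, regulators, phase II enzymes, zonation, sterol synthesis and aryl hydrocarbon receptor response. Members and lists were chosen with earlier results of these data known, and other genes named, such as Tff3 and Afp, after their values were seen. Other scalings, count minimums, gates and subsets of barcodes were tried; the subsets, and leaving out the richest barcode in classes and at eHCC outside the immune lineage, were chosen after seeing the data. Promoters are RefSeq, GRCm38.p6. Python 3.11.15, numpy 2.4.6, scipy 1.17.1, pandas 2.3.3, matplotlib 3.10.9 and R 4.3.3 with edgeR 4.0.16 (for TMM factors) were used.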

Additional observations from a re-analysis of the deposited data

Results flagged for a closer look

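These members moved in opposite directions in 2 groups, with counting intervals that excluded 0 on both sides; the difference itself was not tested, since each group had 1 library. In T-like barcodes the log2 ratio of KO over WT for Cyp2u1 was -0.97 at eHCC and 1.85 in premalignant liver, and that of eHCC over premalignant was -1.47 in KO and 1.35 in WT. Cyp4f18 in T-like barcodes had -1.40 at eHCC and 0.86 in premalignant liver, KO over WT. In plasmacytoid dendritic-like barcodes Cyp4f18 had -1.01 at eHCC and 0.85 in premalignant liver, KO over WT. In NK-like barcodes Cyp4f18 had -1.63 in KO and 4.21 in WT, eHCC over premalignant, with 1 UMI in WT premalignant liver; 19 of the 32 WT eHCC UMIs sat in 1 barcode, and without it the WT ratio was 2.93 (0.20 to 8.34). Cyp4f16 in plasmacytoid dendritic-like barcodes had -0.96 in KO and 1.38 in WT, eHCC over premalignant.

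The neutrophil gene S100a9 was measured beside them. In T-like barcodes S100a9 had 84.8 CPM in KO eHCC, 158 CPM in WT eHCC, 21.3 CPM in KO premalignant and 33.6 CPM in WT premalignant tissue. In NK-like barcodes it had 19.2, 109, 4.81 and 3.22 CPM, and in plasmacytoid dendritic-like barcodes 15.7, 46.9, 5.41 and 7.45 CPM, in the same order. Its part in the Cyp4f18 values was not tested.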

How the results depend on the processing

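Of 1388 recomputed log2 ratios, 1202 kept their sign and lay within the counting interval of the main value. That interval is wide for members with few UMIs. A further 156 moved outside it with the same sign and 30 changed sign, and the causes were not tested. The counts of members and the sums given next are not part of the 1388. No paired analysis was possible because each group had 1 library. In premalignant hepatocyte RNA the 6 members higher in KO became 12 with the gate doubled and 12 per hepatocyte-marker UMI, 1 in barcodes under 10000 UMIs and 10 in those above, 10 in periportal-scored and 1 in pericentral-scored barcodes, and the 12 lower became 5 without Tff3 or Afp barcodes and 4 in periportal-scored ones. The 3 endothelial members lower in KO became 6 by the mean of per-barcode CPM, 5 at 5 UMIs or more, and 1 each at 50 UMIs or more, with the gate halved and at 10% mitochondrial UMIs at most. In premalignant immune barcodes the 1 higher became 3 by per-barcode means and 3 with the gate halved, and the 5 lower became 8 at 5 UMIs, 3 at 50 UMIs, 8 with the gate doubled and 9 with barcodes of 2 lineages kept. At eHCC the 3 immune members higher in KO became 1 by per-barcode means and 6 at 5 UMIs.

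Between the stages, the 0 immune members higher in KO eHCC became 2 by median-of-ratios factors, 2 by TMM and 2 by per-barcode means, and the 27 lower became 13 at 50 UMIs; the 26 lower in WT became 16. Among sinusoidal barcodes the 1 endothelial member higher in KO eHCC became 2 and the 6 lower became 3. The 14 hepatocyte members higher in WT eHCC became 7 in barcodes of 10000 UMIs or more. Thinned to 500 UMIs per barcode, the members' sum was 1487 CPM in KO and 1714 CPM in WT premalignant hepatocyte RNA, 2332 CPM in WT premalignant endothelium, and 135 CPM in KO eHCC, 250 CPM in WT eHCC and 247 CPM in WT premalignant immune barcodes.

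These log2 ratios, KO over WT in premalignant hepatocyte RNA, changed sign. By per-barcode means Cyp20a1 had 0.36, Cyp2a5 0.67, Cyp2c55 2.51, Cyp4a12a -0.17, Cyp2f2 -0.094 and Cyp4v3 -0.31. At 10% mitochondrial UMIs at most Cyp4v3 had -0.34 and Cyp4f15 -0.48. Without its richest barcode Cyp2c55 had 0.64. Under 10000 UMIs Cyp20a1 had 0.067, Cyp2c55 2.65, Cyp4v3 -0.35 and Cyp4f15 -0.93. Without Tff3 or Afp barcodes Cyp20a1 had 0.076, Cyp2a5 1.15, Cyp39a1 0.062 and Cyp2c55 2.25. In periportal-scored barcodes Cyp1a2 had 1.01, Cyp2c55 1.37 and Cyp2c29 0.54. In pericentral-scored ones Cyp2u1 had -1.38, Cyp4a12a -1.37, Cyp26b1 0.13 and Cyp4v3 -0.87. Elsewhere, endothelial Cyp11a1 had -1.91 with the gate halved, and immune Cyp1b1 0.044 by per-barcode means and 0.00242 with the gate doubled. Between the stages Cyp1b1 had 1.17 by per-barcode means in WT immune barcodes, and among sinusoidal barcodes the bounds were 0.57 for Cyp3a11 in KO and 0.45 for Cyp2d9 in WT.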

Other observations

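Stellate or fibroblast-like barcodes were few, at 2 in KO eHCC, 41 in WT eHCC, 26 in KO premalignant and 8 in WT premalignant tissue. Erythroid barcodes, not followed here, numbered 384, 33, 2 and 15 in that order. Barcodes under all cuts numbered 304, 121, 126 and 94. In stellate or fibroblast-like barcodes Cyp1b1, which metabolises oestrogens and polycyclic hydrocarbons, had 28.3 CPM (2 UMIs) in KO eHCC, 134 CPM (111 to 161; 120 UMIs) in WT eHCC, 39.6 CPM (11 UMIs) in KO premalignant and 10.1 CPM (1 UMI) in WT premalignant tissue. Cholangiocyte-like barcodes numbered 33 in KO and 31 in WT premalignant liver. There Cyp2d22 had 120 CPM in KO and 135 CPM in WT, Cyp2j6 107 and 127 CPM, Cyp4f14 64.6 and 94.0 CPM, Cyp2s1 76.4 and 28.6 CPM and Cyp3a13 92.8 and 20.4 CPM. Cyp2f2 had 100 UMIs in KO cholangiocyte-like barcodes and none in WT.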
